A study of Homo sapiens with 30 samples.

Results

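The genes described here are 7 components of the RAS to ERK signalling cascade: the exchange factors SOS1 and SOS2, the small GTPases NRAS and HRAS, the kinases ARAF and BRAF, and the kinase MAP2K1 (MEK1). They are 7 of 60107 genes in the count table, and all 7 passed the filter on low counts. The set was chosen by the fall of SOS1 after 6 h of sorafenib, which was known when the set was drawn up, so the sorafenib values of SOS1 at 6 h are given below as a description with no test. The other 6 genes were added because they belong to the same cascade.

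HepG2, an established human liver tumour line that the labels call hepatocellular carcinoma and the methods of the study call hepatoblastoma, was transfected with a miRNA oligonucleotide using Lipofectamine RNAiMAX, and 24 h later received sorafenib at 10 µM or its vehicle, dimethyl sulfoxide (DMSO). In the 6 h experiment the oligonucleotide was an inhibitor control (IC) or an inhibitor of miR-200c-3p (I200c), and cells were lysed after 6 h of treatment. In the 24 h experiment it was a mimic control (MC), miR-222-5p mimic (M222) or miR-512-3p mimic (M512), and cells were lysed after 24 h. Each of the 10 groups held 3 biological replicates, which gave 30 libraries of QuantSeq 3′ tags, a method in which each transcript contributes 1 tag from close to its poly(A) tail. All cells were transfected, and untransfected or untreated cells were not analysed here. Time and kind of oligonucleotide changed together between both experiments and cannot be told apart. The comparisons ask how sorafenib, each oligonucleotide and their combination moved these transcripts.

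SOS proteins are recruited by receptor adaptors to the membrane, where they make RAS exchange GDP for GTP. GTP-bound RAS activates the RAF kinases, RAF phosphorylates MEK, and MEK phosphorylates ERK, which drives growth programmes and returns inhibitory signals to SOS and RAF. Sorafenib inhibits RAF kinases among other kinases, and HepG2 is known to carry an activated NRAS allele. The values below are transcript levels and say nothing of GTP loading or phosphorylation.

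The oligonucleotides act through the mature miRNAs, and the following RefSeq sequences (GRCh38.p14) are shown because their seeds, bases 2 to 8 in capitals, set which transcripts they can pair with. The 3 seeds differ from each other.
miR-200c-3p: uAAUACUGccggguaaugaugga
miR-222-5p: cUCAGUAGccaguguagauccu
miR-512-3p: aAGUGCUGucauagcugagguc

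The 7-base complements of these seeds were searched on the sense strand of annotated canonical 3′ UTRs (GENCODE release 44). CAGTATT, the complement for miR-200c-3p, lay in 16.1% of 19539 such UTRs, CTACTGA for miR-222-5p in 9.22%, and CAGCACT for miR-512-3p in 19.7%, with no allowance for UTR length. SOS1 is on chromosome 2 (chr2:38962206-39124345, minus strand, GRCh38), and its UTR of 4275 bases held 3 matches to miR-200c-3p, 1 to miR-512-3p and 0 to miR-222-5p. The matches are shown because SOS1 was the member with the widest range of levels between transfections, with the matching bases in capitals.
SOS1, miR-200c-3p match at chr2:38984224-38984252: tgtgaaatgtgCAGTATTccatccttaga
SOS1, miR-200c-3p match at chr2:38983795-38983823: catccattcaaCAGTATTtatgtgagcca
SOS1, miR-200c-3p match at chr2:38981636-38981664: tctgtgtgcagCAGTATTtggtttgcatt
SOS1, miR-512-3p match at chr2:38985735-38985763: actgaatgtgcCAGCACTgaggagttaaa

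Among the other members, SOS2 held 1 match to miR-222-5p, while NRAS, HRAS, ARAF and MAP2K1 held none for any of the 3 miRNAs. The search in BRAF is not reported here, so this list does not say which members lack a match. A match is a description of the letters and not evidence of binding.
SOS2, miR-222-5p match at chr14:50118208-50118236: ttacaaaaatgCTACTGAtcaaataagct

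Total counts ran from 3938764 to 9657063 per library. Levels are given as CPM (counts divided by the library total and rescaled) after scaling by the trimmed mean of M values (TMM), on 1 scale for all 30 libraries. Of 12 hepatocyte-like markers, all 12 were seen in every library, and their summed level ran from 9234 to 21520 CPM. Unlike the other levels, the marker sums here are CPM by library total alone, without TMM scaling. Of 8 markers of other cells, 3 (CD68, LYZ, ACTA2) were seen in every library and VWF was at 0 throughout, with sums from 132 to 368 CPM. The hepatocyte-like sum was lower with sorafenib in the 24 h experiment, at 11185 to 14250 CPM in MC_sorafenib against 17033 to 18709 CPM in MC_DMSO and at 11141 to 13173 CPM in M512_sorafenib against 20719 to 21520 CPM in M512_DMSO. The sum over markers of other cells was lower there too, at 132 to 219 CPM in M512_sorafenib against 302 to 368 CPM in M512_DMSO. At 6 h this second sum was also lower in IC, at 205 to 224 CPM in IC_sorafenib against 242 to 263 CPM in IC_DMSO. It overlapped in I200c, at 221 to 250 CPM in I200c_sorafenib against 207 to 323 CPM in I200c_DMSO. The part of either sum in the results below was not tested. In bulk RNA, fewer cells expressing a gene and less RNA per cell cannot be told apart.

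SOS1, the exchange factor that loads RAS with GTP, varied the most between groups of the 7 genes. Its group means spanned 7.74-fold, from 184 ± 11.2 CPM (SD, n = 3) in I200c_DMSO to 23.8 ± 4.68 CPM in M512_sorafenib. Between them, in falling order, lay IC_DMSO (127 CPM), MC_DMSO (85.5 CPM), M222_DMSO (61.2 CPM), M512_DMSO (54.0 CPM), IC_sorafenib (53.5 CPM), MC_sorafenib (52.3 CPM), I200c_sorafenib (50.8 CPM) and M222_sorafenib (39.3 CPM). All 5 DMSO groups had higher means than the 5 sorafenib groups. Of the 9 neighbouring pairs in this order, 4 did not overlap: I200c_DMSO with IC_DMSO, IC_DMSO with MC_DMSO, MC_DMSO with M222_DMSO, and M222_sorafenib with M512_sorafenib. The groups from M222_DMSO to M222_sorafenib each overlapped the next, and the order is a description, since it holds the 6 h values. The other 6 genes spanned 1.89-fold (SOS2) to 4.43-fold (MAP2K1), and for each of them 0 of 9 neighbouring pairs stood apart. Such gaps were not counted over all genes, so these numbers compare SOS1 with the other members only.

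**Figure D1:**
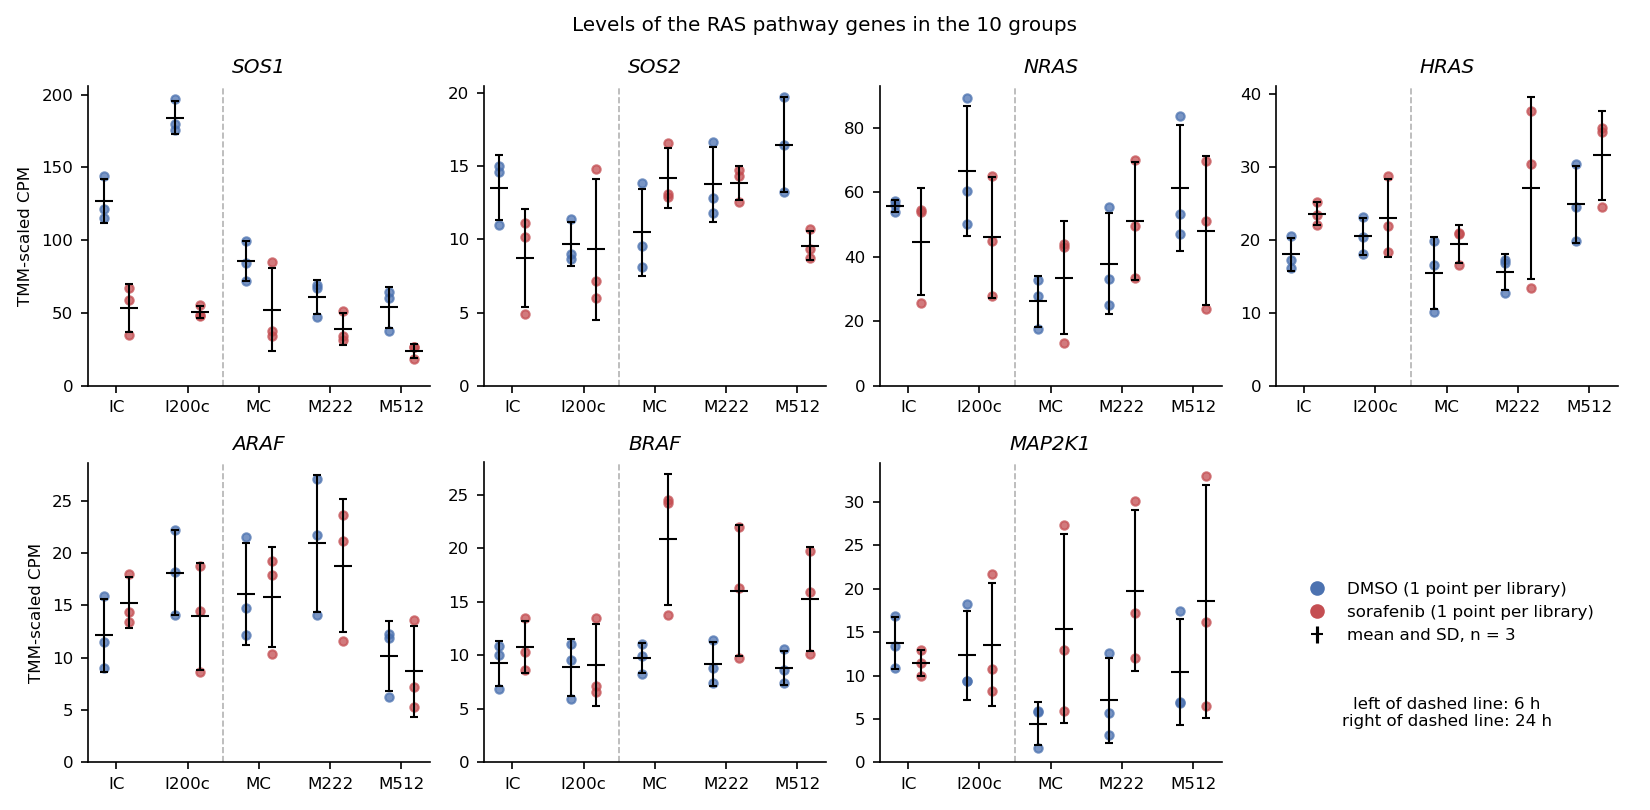
Level of each gene in every library, as TMM-scaled CPM on a linear axis that starts at 0, with DMSO in blue, sorafenib in red, and the mean and SD of 3 replicates as bars; the 6 h groups (IC, I200c) are left of the dashed line and the 24 h groups (MC, M222, M512) right of it. SOS1 lies between 47.8 and 55.7 CPM in I200c with sorafenib against 176 to 197 CPM with DMSO, whereas most other panels show overlapping points.

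At 6 h, SOS1 in IC read 144, 115 and 121 CPM with DMSO and 67.0, 58.7 and 34.8 CPM with sorafenib. In I200c it read 176, 180 and 197 CPM with DMSO and 48.9, 47.8 and 55.7 CPM with sorafenib. In both transfections every sorafenib library was below every DMSO library. The fitted log2 differences were -1.26 (SE 0.19) in IC and -1.86 (SE 0.19) in I200c, that is 2.40-fold and 3.64-fold lower with sorafenib. These are the values that chose the gene. Their difference, -0.60 (SE 0.27) on the log2 scale, is likewise a description.

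The 24 h libraries had no part in that choice. In MC, SOS1 read 84.7, 99.7 and 72.2 CPM with DMSO and 33.9, 85.3 and 37.6 CPM with sorafenib. Sorafenib replicate 2 lay within the DMSO range and the other two lay below it. The log2 difference of -0.71 (SE 0.30) did not pass edgeR's quasi-likelihood test (adjusted p = 0.221, adjusted by Benjamini-Hochberg over all genes tested, as everywhere below). Without MC_sorafenib replicate 2 it was -1.23 (edgeR adjusted p = 0.0167), and without MC_sorafenib replicate 1 it was -0.47 (edgeR adjusted p = 0.592).

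In M222, SOS1 read 69.1, 66.9 and 47.6 CPM with DMSO and 31.6, 51.7 and 34.6 CPM with sorafenib, and the groups overlapped at 1 library on each side. The log2 difference was -0.64 (SE 0.31, edgeR adjusted p = 0.249). In M512 it read 37.7, 64.2 and 60.0 CPM with DMSO and 26.4, 26.6 and 18.4 CPM with sorafenib, with every sorafenib library below every DMSO library. SOS1 fell by 1.22 on the log2 scale (SE 0.31), 2.32-fold, with an edgeR adjusted p of 0.0133 and a DESeq2 adjusted p of 0.00398. The call was lost in 3 of the 6 fits that left out 1 library: without M512_DMSO replicate 2 (adjusted p = 0.0768), M512_DMSO replicate 3 (0.0601) or M512_sorafenib replicate 3 (0.0563), while the log2 difference stayed between -1.42 and -1.04. Tested directly, the sorafenib effect in M512 differed from that in MC by -0.50 (SE 0.43, edgeR adjusted p = 0.965) and that in M222 by 0.07 (SE 0.43, edgeR adjusted p = 1.00). The fall of SOS1 in M512 was thus not shown to differ from its values in the other 24 h transfections.

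**Figure D2:**
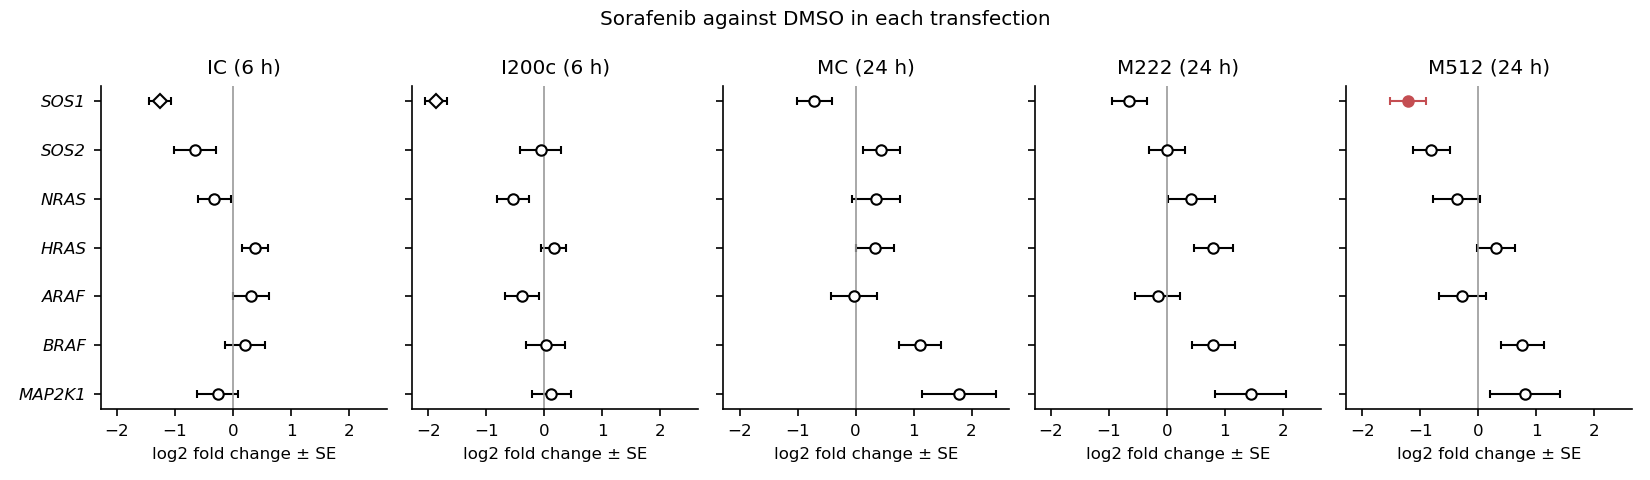
Log2 fold change of each gene, sorafenib against DMSO, with its SE, in the 5 transfections (3 against 3 libraries each). The filled red point, SOS1 in M512 at -1.22, is the value that passed the test; diamonds mark SOS1 at 6 h, which chose the genes and has no test, and open circles did not pass.

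Between oligonucleotides at 6 h, SOS1 is again given as a description, since these libraries chose it. With DMSO, all 3 I200c libraries were above all 3 IC libraries, by 0.54 on the log2 scale (SE 0.19), and with sorafenib the difference was -0.06 (SE 0.19). At 24 h with DMSO, all M222 and all M512 libraries were below all MC libraries, by -0.50 (SE 0.30, edgeR adjusted p = 0.948) and -0.67 (SE 0.30, edgeR adjusted p = 0.425). With sorafenib, M512 was again below MC in all libraries, at -1.17 (SE 0.31, unadjusted p = 0.000975). That difference missed the threshold in edgeR (adjusted p = 0.106) and passed it in DESeq2 (adjusted p = 0.0316) and in the edgeR fit with no filter on low counts, and M222 differed from MC by -0.44 (SE 0.31, edgeR adjusted p = 0.939). M222 and M512 were both set against the same MC libraries.

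SOS2, the paralogue with the same exchange activity, lies on chromosome 14 (chr14:50117130-50231578, minus strand) and was read by 35 to 160 counts per library, against 131 to 1760 for SOS1. In IC it read 14.6, 15.0 and 11 CPM with DMSO and 10.1, 11.1 and 4.89 CPM with sorafenib, a log2 difference of -0.65 (SE 0.36, edgeR adjusted p = 0.999). In I200c its ranges were 8.64 to 11.4 and 5.98 to 14.8 CPM (log2 difference -0.06, SE 0.35). In MC the ranges were 8.11 to 13.8 and 12.9 to 16.6 CPM (log2 difference 0.45, SE 0.32). In M222 they were 11.8 to 16.7 and 12.6 to 14.8 CPM (log2 difference 0.00, SE 0.32). None of these differences passed edgeR's test (adjusted p = 0.999 in IC, 0.958 in I200c, 0.508 in MC and 0.998 in M222).

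SOS2 stood apart between groups in M512 alone of the 5 transfections, at 19.7, 16.5 and 13.2 CPM with DMSO and 10.7, 8.73 and 9.32 CPM with sorafenib. The log2 difference of -0.81 (SE 0.32) did not pass (unadjusted p = 0.0178, edgeR adjusted p = 0.109). It passed only when libraries were scaled by total counts, at -1.0 (adjusted p = 0.0483), a scaling that moved the median of all genes to -0.22 in this comparison. The interaction with MC was -1.26 (SE 0.45, unadjusted p = 0.0102, edgeR adjusted p = 0.871).

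The ratio of SOS1 to SOS2 counts within a library does not depend on the scaling between libraries. In MC its log2 value averaged 3.04 ± 0.29 with DMSO and 1.75 ± 0.52 with sorafenib (SD, n = 3), and in M222 it averaged 2.14 ± 0.32 and 1.47 ± 0.33. In both, every sorafenib library was below every DMSO library, and the exact permutation test gave p = 0.1, the smallest that 3 against 3 allows, or 0.26 after Benjamini-Hochberg adjustment over 13 ratio tests. In M512 the ratio averaged 1.69 ± 0.66 and 1.29 ± 0.31 and overlapped (exact permutation p = 0.5). M512_DMSO replicate 1 was at 0.93, while replicates 2 and 3 (1.96 and 2.17) were above every sorafenib library (0.98 to 1.60). The difference was -0.78 without M512_DMSO replicate 1 and -0.16 without M512_DMSO replicate 3. At 6 h the ratio differed by -0.59 in IC and -1.70 in I200c, as a description.

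**Figure D3:**
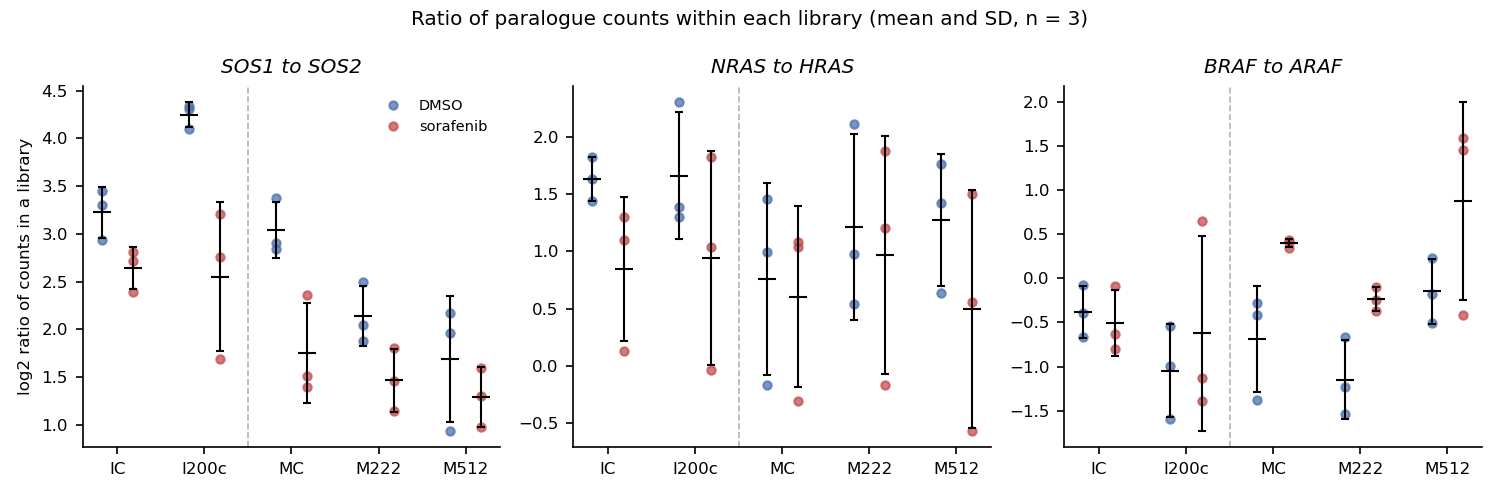
Log2 ratio of the counts of paralogues within each library (count + 0.5), with DMSO in blue, sorafenib in red, and mean and SD of 3 replicates; the 6 h groups are left of the dashed line and the 24 h groups right of it. The SOS1 to SOS2 ratio is lower with sorafenib in all libraries of IC, I200c, MC and M222, and the BRAF to ARAF ratio is higher with sorafenib in all libraries of MC and M222.

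NRAS, the RAS GTPase of which HepG2 carries an activated allele, lies on chromosome 1 (chr1:114704469-114716771, minus strand). In IC it read 57.4, 53.9 and 56.0 CPM with DMSO and 25.7, 54.5 and 54.1 CPM with sorafenib, so 1 library made up the difference of -0.32 (SE 0.29). In I200c it ranged from 50.3 to 89.2 CPM with DMSO and from 28 to 65.2 CPM with sorafenib (log2 difference -0.54, SE 0.28, edgeR adjusted p = 0.373). At 24 h the log2 differences were 0.35 (SE 0.41) in MC, 0.42 (SE 0.41) in M222 and -0.37 (SE 0.40) in M512, with overlapping groups and edgeR adjusted p of 0.728, 0.622 and 0.634.

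The DMSO groups of NRAS differed more than its treated groups did. MC_DMSO had the lowest mean of the 10 groups, at 28, 33.0 and 17.6 CPM, and M512_DMSO read 47.1, 53.3 and 83.5 CPM. All M512_DMSO libraries were above all MC_DMSO libraries, by 1.22 on the log2 scale (SE 0.41, unadjusted p = 0.00670), which did not pass after adjustment (edgeR adjusted p = 0.226, DESeq2 adjusted p = 0.112). MC_DMSO was also below IC_DMSO in all libraries, at -1.07 (SE 0.36, edgeR adjusted p = 0.161, DESeq2 adjusted p = 0.0555). Both differences passed in the edgeR fit with no filter on low counts.

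HRAS, a second RAS GTPase, lies on chromosome 11 (chr11:532242-537321, minus strand). In IC all sorafenib libraries (23.4, 22 and 25.1 CPM) were above all DMSO libraries (16.1, 17.3 and 20.5 CPM), by 0.38 on the log2 scale (SE 0.22, edgeR adjusted p = 0.999). In M222 it read 12.7, 17.2 and 16.8 CPM with DMSO and 30.3, 13.4 and 37.7 CPM with sorafenib, where replicates 1 and 3 were high and replicate 2 was not. The log2 difference was 0.80 (SE 0.33, unadjusted p = 0.0242, edgeR adjusted p = 0.180). Without M222_sorafenib replicate 2 it was 1.16 (edgeR adjusted p = 0.0357), and without M222_sorafenib replicate 3 it was 0.54 (edgeR adjusted p = 0.531). In I200c, MC and M512 the log2 differences were 0.16 (SE 0.22), 0.33 (SE 0.33) and 0.31 (SE 0.33), so HRAS had a positive sign in all 5 transfections with no call.

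The log2 ratio of NRAS to HRAS counts was lower with sorafenib in every library of IC, averaging 1.63 ± 0.19 with DMSO and 0.85 ± 0.63 with sorafenib (SD, n = 3; exact permutation p = 0.1, adjusted 0.26). In the other transfections the groups overlapped, with differences of -0.72 in I200c, -0.16 in MC, -0.24 in M222 and -0.78 in M512 (exact permutation p between 0.3 and 0.8).

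BRAF, a RAF kinase and a known target of sorafenib, lies on chromosome 7 (chr7:140719327-140924929, minus strand) and was read by 28 to 177 counts per library. At 6 h its groups overlapped and it did not pass edgeR's test (adjusted p = 0.999 in IC and 0.983 in I200c). In IC it read 10.9, 10.0 and 6.85 CPM with DMSO and 13.5, 10.3 and 8.66 CPM with sorafenib (log2 difference 0.20, SE 0.35). In I200c the log2 difference was 0.02 (SE 0.34). In MC it read 8.24, 9.94 and 11 CPM with DMSO and 24.5, 13.8 and 24.2 CPM with sorafenib, every sorafenib library being above every DMSO library. The log2 difference was 1.11 (SE 0.37, unadjusted p = 0.00583), which did not pass after adjustment in edgeR (0.105) or DESeq2 (0.0603). Without MC_sorafenib replicate 2 it was 1.36 with an edgeR adjusted p of 0.0485, and without MC_sorafenib replicate 1 it was 0.99 with an edgeR adjusted p of 0.333.

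The M222 and M512 values of BRAF had the same sign. In M222 it read 7.41, 8.84 and 11.5 CPM with DMSO and 22, 9.76 and 16.3 CPM with sorafenib (log2 difference 0.80, SE 0.37, edgeR adjusted p = 0.230). In M512 it read 7.39, 10.6 and 8.59 CPM with DMSO and 15.9, 10.2 and 19.8 CPM with sorafenib (log2 difference 0.76, SE 0.37, edgeR adjusted p = 0.199). In both, 1 sorafenib library, replicate 2, lay within the DMSO range, and the adjusted p did not pass in any of the 3 transfections.

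ARAF, the RAF kinase encoded on chromosome X (chrX:47561205-47571908, plus strand), overlapped between DMSO and sorafenib in all 5 transfections. Its log2 differences were 0.32 (SE 0.31) in IC, -0.38 (SE 0.29) in I200c, -0.02 (SE 0.39) in MC, -0.16 (SE 0.39) in M222 and -0.27 (SE 0.41) in M512, with edgeR adjusted p from 0.569 to 0.999. Its lowest group means were those of M512, with libraries at 6.28, 11.9 and 12.3 CPM with DMSO and 5.24, 13.6 and 7.21 CPM with sorafenib. With sorafenib, M512 was below MC by -0.93 (SE 0.40, unadjusted p = 0.0310, edgeR adjusted p = 0.388).

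The log2 ratio of BRAF to ARAF counts was higher with sorafenib in every library of MC, averaging -0.69 ± 0.60 with DMSO and 0.40 ± 0.05 with sorafenib, and in every library of M222, averaging -1.15 ± 0.45 and -0.24 ± 0.14 (SD, n = 3; exact permutation p = 0.1 and adjusted 0.26 for both). In M512 it averaged -0.15 ± 0.37 and 0.87 ± 1.12 and overlapped (exact permutation p = 0.3). At 6 h the differences were -0.13 in IC and 0.42 in I200c (exact permutation p = 0.7 for both).

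MAP2K1, the kinase that phosphorylates ERK, lies on chromosome 15 (chr15:66386837-66491656, plus strand) and was the most variable gene between replicates, with a median coefficient of variation of 53.9% over the 10 groups against 17.5% to 36.4% for the other 6. Exons of its canonical transcript overlap the gene span of SNAPC5 on the opposite strand, which held 3974 counts over all libraries against 2588 for MAP2K1. They also overlap the span of the non-coding gene ENSG00000261351 on that strand, which held 466 counts. Overlap with the exons of these genes was not examined. Whether the counting used strand is not given in the sources used here, so the MAP2K1 values are uncertain to that extent. In MC it read 5.96, 5.82 and 1.62 CPM with DMSO and 5.95, 13.0 and 27.3 CPM with sorafenib. Sorafenib replicate 1 was at the level of the DMSO libraries, and the log2 difference of 1.79 (SE 0.64, unadjusted p = 0.0101) did not pass (edgeR adjusted p = 0.135). It passed in the edgeR fit with no filter on low counts (adjusted p = 0.00496).

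In M222, MAP2K1 read 12.6, 5.67 and 3.12 CPM with DMSO and 30.03, 17.2 and 12 CPM with sorafenib (log2 difference 1.44, SE 0.62, edgeR adjusted p = 0.192). With no filter on low counts this difference passed in edgeR (adjusted p = 0.0275). In M512 it read 6.90, 6.79 and 17.5 CPM with DMSO and 16.1, 6.50 and 32.9 CPM with sorafenib (log2 difference 0.82, SE 0.60, edgeR adjusted p = 0.442). At 6 h the log2 differences were -0.26 (SE 0.35) in IC and 0.12 (SE 0.34) in I200c. The 24 h values were positive in all 3 transfections but overlapped between groups in each, and in M512 the value was 0.09 without M512_sorafenib replicate 3 and 1.44 without M512_DMSO replicate 3.

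Between the control transfections with DMSO, MAP2K1 was lower in MC at 24 h than in IC at 6 h in all libraries, 5.96, 5.82 and 1.62 against 13.4, 10.9 and 16.9 CPM. The log2 difference was -1.61 (SE 0.50), with an edgeR adjusted p of 0.130 and a DESeq2 adjusted p of 0.0360. The sorafenib value of MAP2K1 in MC minus that in IC, the interaction of time with sorafenib, was 2.04 (SE 0.68, unadjusted p = 0.00771). It did not pass (edgeR adjusted p = 0.199, DESeq2 adjusted p = 0.0838), and it rests on the same MC_DMSO libraries. Both MAP2K1 values passed in the edgeR fit with no filter on low counts. For SOS2 the same interaction was 1.08 (SE 0.47, unadjusted p = 0.0333, edgeR adjusted p = 0.317). For SOS1, MC_DMSO was below IC_DMSO in all libraries, by -0.55 (SE 0.29), and the interaction was 0.52 (SE 0.41), both as a description because the IC libraries chose the gene.

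Counted over the genes, 0 of 6 members (SOS1 left out) passed edgeR's test for sorafenib in IC, where 0.0393% of all genes tested passed, and 0 of 6 in I200c, where 2.28% passed. The counts at an unadjusted p under 0.05 were also 0 of 6 in both (3.78% and 15.3% of all genes), and DESeq2 called none. In IC, DESeq2 gave no adjusted p for SOS2 and BRAF. In MC, 0 of 7 passed (0 with DESeq2) beside 2.6% of all genes, and in M222 0 of 7 passed (0 with DESeq2) beside 4.38%. In M512, 1 of 7 passed, SOS1 (1 with DESeq2), beside 9.96% of all genes. At an unadjusted p under 0.05 there were 3 of 7 in MC, 4 of 7 in M222 and 3 of 7 in M512, beside 16.9%, 19.1% and 24.2% of all genes. With 7 genes, a single call where nearly 10% of all genes passed is a share near the background.

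For the oligonucleotides, edgeR called 0 members in each of the 6 comparisons, with SOS1 left out of those at 6 h. In I200c against IC, 0 of 6 passed with DMSO (0.0157% of all genes) and 0 of 6 with sorafenib (0%), and at an unadjusted p under 0.05 it was 0 of 6 in both (5.24% and 2.14% of all genes). In M222 against MC, 0 of 7 passed with DMSO and 0 of 7 with sorafenib (0% of all genes in either), and unadjusted it was 0 of 7 in both (5.56% and 6.04%). In M512 against MC, 0 of 7 passed with DMSO (0.634% of all genes) and 0 of 7 with sorafenib (0.355%). Unadjusted it was 4 of 7 with DMSO, beside 10.5% of all genes, and 2 of 7 with sorafenib, beside 11.1%. DESeq2 called 0 members in these comparisons except for 1, SOS1 in M512 against MC with sorafenib.

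Among the interactions of oligonucleotide and sorafenib, edgeR called 0 of 6 members for I200c (0% of all genes), 0 of 7 for M222 (0%) and 0 of 7 for M512 (0.00755%), and DESeq2 called 0 in each. At an unadjusted p under 0.05 there was 1 member in these 3 comparisons, SOS2 in M512, beside 3.24%, 1.96% and 5.04% of all genes. Between MC_DMSO and IC_DMSO edgeR called 0 of 6 (1 with DESeq2, MAP2K1) beside 0.528% of all genes, and for the interaction of time with sorafenib it called 0 of 6 (0 with DESeq2) beside 0.216%. Unadjusted it was 2 of 6 in both, beside 15.8% and 13.7% of all genes.

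Other genes of the cascade were taken from a list of 54, of which 42 passed the filter on low counts. In IC, edgeR called 0 of 42 beside 0.0393% of all genes. At an unadjusted p under 0.05 it was 3 of 42, beside 3.78% of all genes. In I200c edgeR called 1 (2.38%, beside 2.28% of all genes), the RAS-related GTPase MRAS. It fell by 0.80 on the log2 scale (SE 0.18, adjusted p = 0.0175) from 52.8 ± 7.84 to 30.4 ± 4.64 CPM (SD, n = 3). In MC, 2 of 42 rose (4.76%, beside 2.6% of all genes): the docking protein GAB2 by 1.64 (SE 0.34, adjusted p = 0.00780), from 15.0 ± 5.74 to 45.9 ± 20.3 CPM, and SPRED2, an inhibitor of RAS to RAF signalling, by 1.74 (SE 0.41, adjusted p = 0.0191). In M222, 1 rose and 1 fell (4.76% together, beside 4.38% of all genes): GAB2 rose by 1.47 (SE 0.34, adjusted p = 0.0139), and RPS6KA3, an S6 kinase activated by ERK, fell by 0.88 (SE 0.23, adjusted p = 0.0265).

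In M512, 5 of the 42 passed (11.9%), 2 higher and 3 lower, beside 9.96% of all genes. The shares of the list in I200c, M222 and M512 were near those of all genes, and that in MC rested on 2 genes. By edgeR's unadjusted p under 0.05, the list held 7 of 42 in I200c, 5 in MC, 11 in M222 and 13 in M512. The shares of all genes were 15.3%, 16.9%, 19.1% and 24.2%. In M512, RPS6KA3 fell by 1.15 on the log2 scale (SE 0.23, edgeR adjusted p = 0.00222), from 233 ± 10.0 to 107 ± 5.56 CPM (SD, n = 3). It remained past the threshold in all 6 fits without 1 library. The docking protein IRS1 fell by 0.95 (adjusted p = 0.0113) and FNTB, a subunit of the enzyme that farnesylates RAS, by 0.87 (adjusted p = 0.0387). RCE1, a protease that trims farnesylated RAS, rose by 1.60 (adjusted p = 0.0181), and the docking protein FRS2 by 1.17 (adjusted p = 0.0297). FNTB was named after its values were seen. Of the 4 other RAF, MEK and ERK kinases on the list, edgeR called 0 in each of the 5 transfections. At an unadjusted p under 0.05 it was 1 of 4 in I200c and 1 of 4 in MC, beside 15.3% and 16.9% of all genes.

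These calls rested on few libraries. In I200c, MRAS was lost without DMSO replicate 1 or sorafenib replicate 2 or 3 (adjusted p up to 0.0905). In MC, GAB2 was lost without DMSO replicate 1 or 3 or sorafenib replicate 1 (up to 0.0895), and SPRED2 without DMSO replicate 3 or sorafenib replicate 1 or 3 (up to 0.159). In M222, GAB2 was lost without DMSO replicate 1 or 3 or sorafenib replicate 3 (up to 0.0763), and RPS6KA3 without any 1 of DMSO replicates 1 and 3 and sorafenib replicates 1 and 3 (up to 0.169). In M512, IRS1 was lost without DMSO replicate 1 or 3 (up to 0.0642) and RCE1 without DMSO replicate 2 or sorafenib replicate 1 (up to 0.0938). FRS2 and FNTB each kept the call in 1 of the 6 fits, that without sorafenib replicate 3 (otherwise up to 0.136 and 0.187). The median log2 change of the 42 genes was -0.02 in IC, -0.06 in I200c, 0.06 in MC, 0.15 in M222 and 0.03 in M512, beside 0.00, 0.00, -0.01, -0.03 and -0.03 over all genes.

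**Figure D4:**
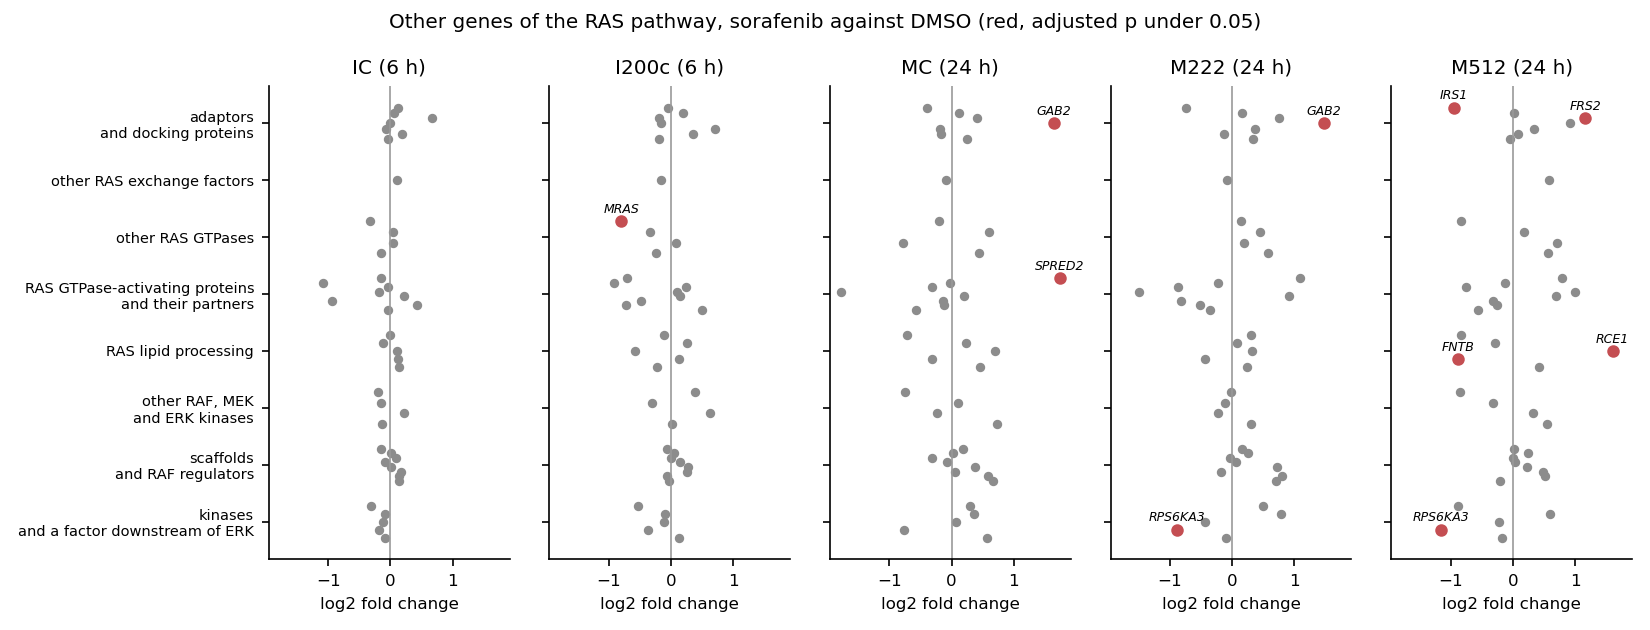
Log2 fold change, sorafenib against DMSO, of the 42 other genes of the cascade that passed the filter, by role, in each transfection; 1 point is 1 gene and red points, which are named, passed edgeR's test. The number of red points is 0 in IC, 1 in I200c, 2 in MC, 2 in M222 and 5 in M512.

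The genes whose levels followed SOS1 most closely over the 30 libraries, among 13799 others, were ENSG00000272405 (Pearson r = 0.89), FILIP1L (0.88), DCDC2 (0.85), SLC23A2 (0.85) and CYP1A1 (0.85). Those that ran most against it were the metallothioneins MT1A (-0.86) and MT1F (-0.83), with SAT2 (-0.85), EFNA1 (-0.83) and PBDC1 (-0.83). None of the other 6 members was among them: SOS1 had r = -0.50 with BRAF, -0.49 with HRAS, 0.22 with ARAF, 0.21 with NRAS, -0.16 with MAP2K1 and 0.06 with SOS2. Of all 21 pairs of members, NRAS and MAP2K1 ran together the most (r = 0.73, Spearman's rho = 0.76). The libraries differ in treatment, time and depth, so the correlations describe the 30 libraries and carry no p-value. In the 15 DMSO libraries alone, the genes listed as following SOS1 had r from 0.74 (SLC23A2) to 0.87 (CYP1A1). Those listed as running against it had r from -0.84 (PBDC1) to -0.52 (MT1F).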

How the data were processed

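HepG2 RNA was measured with QuantSeq 3′ FWD libraries in 10 groups of 3. The authors trimmed reads, aligned them with STAR to GRCh38, and counted reads per gene with HTSeq in the Bluebee QuantSeq pipeline. Tool versions, the annotation release and the strand setting of the counting are not given in the sources used here. The deposited table holds raw counts for 60107 genes, and 92 further lines with no gene (3 counts in all) were left out. A deposited table of normalised values was not used.

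The 7 genes, the pathway list and the marker lists were chosen with earlier results of these data known. Counts were tested with edgeR 4.0.16 (quasi-likelihood F test, two-sided, TMM scaling, filterByExpr by group, 1 coefficient per group). The 12 libraries at 6 h, the 18 at 24 h, and the 12 of IC and MC were fitted apart, which left 12738, 13244 and 12500 genes. An adjusted p (Benjamini-Hochberg over all genes tested) under 0.05 counts as passed. The SE is the log2 fold change divided by the square root of F. Ratios within a library used count + 0.5 and a two-sided exact permutation test. All 7 genes were described in every comparison, and of the pathway list at most 4 passing genes with the smallest adjusted p were named per comparison, FNTB excepted. The 5 genes most and least like SOS1 were ranked by Pearson's r of log2 CPM (prior count 2). The search for seed matches in BRAF is not reported here. The scripts were tested on simulated data.

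Alternatives were DESeq2 1.42.0, median-ratio size factors, total counts, no filter, the compared groups alone, a replicate block, and leaving out each library. Those for the pathway list were added after seeing the data. Replicates differed by more than counting noise, and none was a duplicate. Total counts of 3938764 to 9657063 set the counting precision of the less abundant members, down to 11 counts (MAP2K1). Same-numbered libraries of DMSO and sorafenib deviated together in 4 of 15 pairs (correlation over 0.1), and in no transfection in all 3, so the numbers were not taken as pairs.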

Additional observations from a re-analysis of the deposited data

How the results depend on the processing

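Of 420 alternative log2 differences of the 7 members under sorafenib, 411 were counted as the same as the main fit, 6 newly passed and 3 no longer passed. Of the 411, 388 also kept their direction and 23 changed sign with neither value past an unadjusted p of 0.05. For tested values, the same means the same side of the threshold. The 411 also hold the SOS1 values at 6 h, which have no test. Those were counted as the same because their sign held and their shift stayed under the replicate SD. With no filter on low counts, the number of members called was 1 for sorafenib in MC (MAP2K1), 1 in M222 (MAP2K1), 1 for M512 against MC with DMSO (NRAS), 1 for M512 against MC with sorafenib (SOS1), 2 for MC_DMSO against IC_DMSO (NRAS, MAP2K1) and 1 for the interaction of time with sorafenib (MAP2K1), each against 0. With total counts, 2 members (SOS1, SOS2) were called for sorafenib in M512 against 1, and this scaling moved the median log2 of all genes from between -0.03 and -0.01 to -0.12 in MC, -0.14 in M222 and -0.22 in M512. DESeq2 called 1 member for M512 against MC with sorafenib (SOS1) and 1 for MC_DMSO against IC_DMSO (MAP2K1). Fitted on only the groups compared, 1 member (NRAS) was called for M512 against MC with DMSO. With a replicate block, 1 member (SOS1) was called for M512 against MC with sorafenib, and the block changed no other count of members called; the correlations of same-numbered libraries ran from -0.11 to 0.19, and 9 of 15 correlated best with their own number. Leaving out 1 library gave 0 to 2 members for sorafenib in MC, 0 to 1 in M222 and 0 to 1 in M512. For the pathway list, leaving out 1 library gave 0 to 1 genes in I200c, 0 to 3 in MC, 0 to 3 in M222 and 2 to 6 in M512. With no filter, 2 genes of the list were called in I200c and 4 in M222, DESeq2 called 5 in M222, and only the groups compared gave 0 in I200c. In M512, FRS2 was lost with total counts (adjusted p = 0.0643) and FNTB with no filter (0.0508) or only the groups compared (0.0635), and in I200c MRAS was lost with only the groups compared (0.0972). The cause of these changes was not tested. Low counts (27 to 199 per library for ARAF, BRAF and SOS2) limit what could be detected for the less abundant members.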
